A study of Mus musculus with 6 samples.

Results

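The ABC lipid transporters of the mouse cortex were compared between microglia-depleted and control mice. They were taken from the deposited gene table by symbol, as 9 genes of the ABCA and ABCG subfamilies (Abca1, Abca2, Abca3, Abca5, Abca7, Abca8a, Abca9, Abcg1 and Abcg4), of 23366 genes in all. RNA came from the frontal cortex of 6 mice on the C57BL/6 background, with 1 library per mouse. The depleted mice (A4, A5 and A6) were CX3CR1-CreERT2+/- iDTR+/- animals taken at d10 after diphtheria toxin (DT), and the controls (A1, A2 and A3) were CX3CR1-CreERT2+/- littermates without iDTR. All carried the inducible Cre and, by the study's methods, both genotypes received tamoxifen. Whether the controls also received DT was not given in the sources used here, so the toxin and the loss of microglia cannot be told apart. Cre was driven by the CX3CR1 promoter, which is active in microglia and also in other macrophages of the brain borders, and by d10 the brain of such mice holds repopulating microglia. The mice were adult and age-matched, and their exact age was not given in the sources used here.

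ABC transporters are membrane proteins that use ATP to move substrates across or between the leaflets of a membrane. ABCA and ABCG members move cholesterol, phospholipids and sphingolipids, and in the brain they load lipid onto particles built around apolipoprotein E. Several of them are under the control of liver X receptors (LXRs), nuclear receptors that bind DNA as partners of retinoid X receptors (RXRs) when oxysterols accumulate. Cholesterol cannot cross the blood-brain barrier, so brain cells depend on their own synthesis, transfer and export.

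The sequences upstream of Abca1 and Abca2 are shown because Abca1 is the textbook LXR target among these genes and Abca2 is the transporter that the study names, and the groups lay apart in both genes. Each is the run of 250 bases before the RefSeq start of the gene on GRCm38.p6, written 5′ to 3′ in the direction of transcription. Capitals mark matches to a DR4 element (2 direct repeats of the nuclear receptor unit NGGTNA with any 4 bases between them), an E-box (CACGTG) or a TATA box (TATAAA), searched on both strands.
Abca1 promoter, chr4:53159896-53160145, minus strand: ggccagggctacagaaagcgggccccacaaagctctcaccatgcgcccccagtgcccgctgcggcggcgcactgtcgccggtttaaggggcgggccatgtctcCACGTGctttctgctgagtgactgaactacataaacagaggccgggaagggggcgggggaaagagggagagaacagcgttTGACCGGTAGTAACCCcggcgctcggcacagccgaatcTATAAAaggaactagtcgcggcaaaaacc
Abca2 promoter, chr2:25428349-25428598, plus strand: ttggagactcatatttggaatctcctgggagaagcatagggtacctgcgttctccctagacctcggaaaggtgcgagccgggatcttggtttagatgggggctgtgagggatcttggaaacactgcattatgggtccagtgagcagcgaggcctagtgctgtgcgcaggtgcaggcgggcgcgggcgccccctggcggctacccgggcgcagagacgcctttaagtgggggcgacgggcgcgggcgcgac
The Abca1 window held an E-box beginning 147 bases before the start, a DR4 match beginning at 67 bases and a TATA box beginning at 29 bases. The DR4 match reads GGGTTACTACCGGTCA on the opposite strand. None of these matches shared a base with another. The Abca2 window held no match to any of the 3 patterns, and its GC content was 63.2%. Windows of 300 bases, from 250 before to 50 after the start, were found for 7 of the 9 genes (Abca1, Abca2, Abca3, Abca5, Abca7, Abca8a and Abca9). The DR4 pattern occurred in 1 of these 7, Abca1, and in 0.718% of all 32851 RefSeq windows. The E-box occurred in Abca1 and Abca8a and in 7.15% of all windows, and the TATA box in Abca1 and in 13.6% of all windows. The GC box GGGCGG was found in Abca1, Abca2, Abca3, Abca5 and Abca7, and in 35.7% of all windows. In Abca2 it lay after the start, outside the printed run.

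The libraries differed in depth and in 2 further respects. Values were FPKM (fragments scaled to transcript length and library depth), to which the authors applied TMM factors. The spacing of low values gave about 14.5 to 20.4 M fragments in control mice and 7.14 to 13.7 M in depleted mice. A4 stood apart: it was the highest or the lowest of the 6 mice in 55.4% of the 14385 genes tested, against 23.2% to 39.3% for the others. Xist was at 4.74 FPKM in A3 and at least 30.86 FPKM elsewhere, and 4 Y-linked genes summed to 5.56 FPKM in A4 and to at most 0.16 FPKM elsewhere, although the groups were stated to be sex-matched. The 6 cortical markers, among them Neurod6 and Slc17a7, were detected in every mouse. Microglial marker RNA was present at d10: the 10 genes of the list, none of them at 0 in any mouse, summed to 105.3 to 128.7 FPKM in control and 108.7 to 133.6 FPKM in depleted mice. Within that list P2ry12 and Fcrls were lower in every depleted mouse than in every control mouse, and Siglech was higher.

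All 9 transporters were expressed in every mouse, and none had an adjusted p-value under 0.1. Differences were tested with limma on log2(FPKM + 1) over the 14385 genes whose mean reached 0.5 FPKM, all 9 members included, with Benjamini-Hochberg adjustment. By this rule 0 of 9 transporters were called, where 4 of all genes tested were (0.0278%). At an unadjusted p-value under 0.05 in the same fit there were 2 of 9, Abca2 and Abcg4, against 10.5% of all genes tested. Both were lower in depleted mice, as were 5.74% of all genes tested at that level, and 4.79% were higher. The groups did not overlap in 3 of 9 transporters, Abca1, Abca2 and Abcg4, against 17.6% of all genes tested. The added 1 shrinks log2 differences of weakly expressed genes, most of all those of Abca8a and Abca9. Values are given below in the order A1, A2, A3 for control and A4, A5, A6 for depleted mice. In bulk tissue, fewer cells of a type and less RNA per cell cannot be told apart.

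In control cortex the order of levels per length was Abca2, Abca3, Abcg4, Abcg1, Abca5, Abca7, Abca1, Abca8a and Abca9, with means from 41.1 to 1.78 FPKM. Abca2 stood above 84.6% of the genes tested by its mean over all mice, and Abca9 above 15.7%. Each neighbouring pair in that order lay apart in the control mice, apart from Abca8a, at 1.71 to 2.13 FPKM, and Abca9, at 1.67 to 1.96 FPKM. In depleted mice Abcg4 and Abcg1 overlapped, as did Abca7 and Abca1. The summed FPKM of the 9 genes was 112.6, 111.9 and 115.6 in control and 99.3, 107.2 and 101.6 in depleted mice. Every depleted mouse was below every control mouse in this sum, of which Abca2 made 34.97% to 37.68% in control and 31.95% to 33.75% in depleted mice. The means were 113.4 ± 1.97 and 102.7 ± 4.07 FPKM (SD, n = 3 each), with p = 0.1 in an exact two-sided permutation test, which can go no lower with 3 mice a group.

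**Figure D1:**
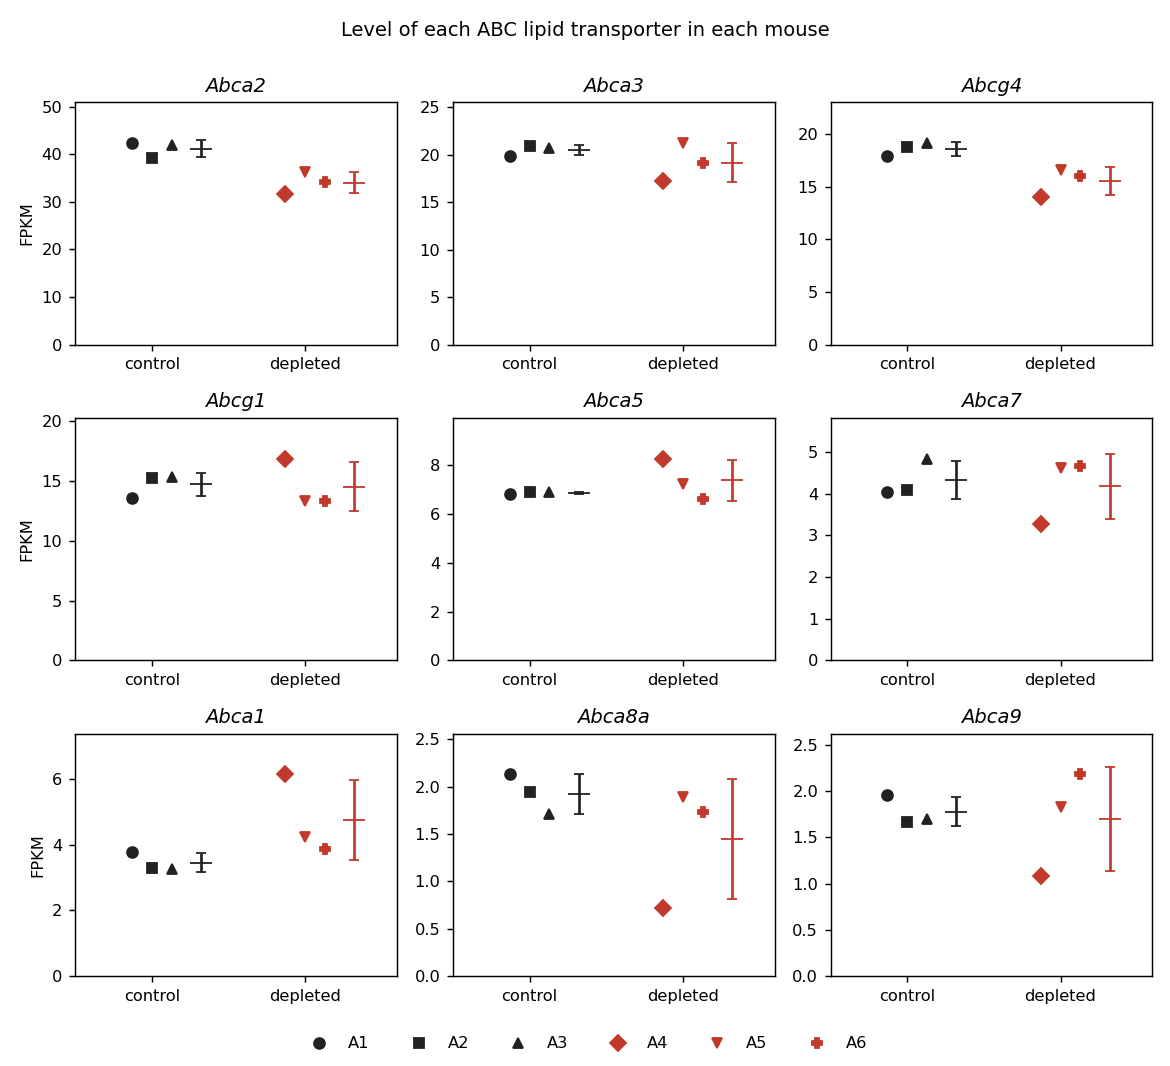
FPKM (vertical axis, from 0) of each transporter in the 3 control mice (black) and the 3 depleted mice (red), with 1 symbol per mouse and the mean ± SD beside each group. The groups lie apart in Abca2 and Abcg4, which are lower in depleted mice, and in Abca1, which is higher, and A4 is the highest or the lowest of the 6 mice in every panel.

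Abca2 and Abcg4 were lower in each depleted mouse than in each control mouse. Abca2 is an endolysosomal transporter abundant in oligodendrocytes, with a role in sphingolipid and cholesterol handling. It lies on chromosome 2 of GRCm38, from 25428703 to 25448540. Its level was 42.4, 39.1 and 41.9 FPKM in control and 31.7, 36.2 and 34.1 FPKM in depleted mice, with means of 41.1 ± 1.77 and 34.0 ± 2.23 FPKM (SD, n = 3). Every depleted mouse was below the lowest control mouse, and A4 was the lowest. The mean was 17.3% lower in depleted mice, with a log2 difference of -0.27 (95% interval from -0.45 to -0.086, adjusted p = 0.378 in limma). Without A4 the log2 difference was -0.22. Since the study named Abca2 on these mice, its direction is not independent evidence.

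Abcg4, a transporter of sterols that is expressed mainly in the nervous system, lies on chromosome 9 from 44273188 to 44288615. Its level was 17.9, 18.7 and 19.2 FPKM in control and 14.03, 16.6 and 16.02 FPKM in depleted mice. All depleted mice were low, and A4 was the lowest. The mean was 16.5% lower, with a log2 difference of -0.25 (95% interval from -0.46 to -0.038, adjusted p = 0.419 in limma), and of -0.18 without A4. Abca2 and Abcg4 together make 2 of 9 members with every depleted mouse below every control mouse, where 9.38% of all genes tested had that order.

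Abca1 was the member that was higher in every depleted mouse. It exports cholesterol and phospholipid to lipid-poor apolipoproteins, the step that forms nascent high-density lipoprotein, and it carries the DR4 match shown above. It lies on chromosome 4 from 53030787 to 53159895. Its level was 3.78, 3.28 and 3.27 FPKM in control and 6.13, 4.24 and 3.87 FPKM in depleted mice. A6 lay close to A1, and A4 well above all others. The mean was 37.9% higher, with a log2 difference of 0.35 (95% interval from -0.016 to 0.72, adjusted p = 0.492 in limma). Without A4 the log2 difference was 0.19. The order of the mice placed Abca1 among the 8.21% of genes tested with every depleted mouse above every control mouse.

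Abcg1 hands cholesterol to formed lipoprotein particles and is, like Abca1, a classic LXR target. It lies on chromosome 17 from 31057675 to 31117988. Its level was 13.6, 15.2 and 15.4 FPKM in control and 16.9, 13.4 and 13.3 FPKM in depleted mice, in the order A1 to A6. A4 was the highest of all mice, and A5 and A6 were the lowest. The log2 difference was -0.026 (95% interval from -0.28 to 0.23, adjusted p = 0.955 in limma), and it became -0.13 without A4, with A5 and A6 then below every control mouse. It was slightly above 0 when A3, A5 or A6 was left out.

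Among the remaining ABCA genes the groups overlapped. Abca3, known for loading phospholipid into the lamellar bodies of lung surfactant cells, was at 19.9, 20.9 and 20.7 FPKM in control and 17.2, 21.3 and 19.1 FPKM in depleted mice. A5 was the highest and A4 the lowest of all. Abca3 lies on chromosome 17 from 24351950 to 24410201, and its log2 difference was -0.098 (95% interval from -0.31 to 0.12, adjusted p = 0.735 in limma). It was -0.025 without A4 and -0.17 without A5. The antisense gene D330041H03Rik overlaps 914 of its exonic bases and 8.06% of its 75-base windows also occur in other genes, so its reads are less certain than those of the other members, in which at most 0.559% of windows were shared.

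Abca5, a transporter of lysosomes and late endosomes, had the closest values of all members in control mice, at 6.80, 6.88 and 6.87 FPKM, a coefficient of variation of 0.636%. The depleted mice spread around this level, at 8.25, 7.22 and 6.61 FPKM, so that A4 and A5 were above and A6 below every control mouse. It lies on chromosome 11 from 110269369 to 110337716, and its log2 difference was 0.086 (95% interval from -0.16 to 0.33, adjusted p = 0.806 in limma) and 0.011 without A4. The Abca5 values stood for about 424 to 1155 fragments per mouse if all came from its longest transcript. At 424 fragments the exact 95% Poisson interval ran from 385 to 466. Counting error alone is thus wider than the control spread of Abca5.

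Abca7, which moves phospholipid, takes part in phagocytosis and is a risk gene of Alzheimer's disease, was at 4.03, 4.09 and 4.84 FPKM in control and 3.28, 4.61 and 4.65 FPKM in depleted mice. A4 was low, and A5 and A6 were within the control range. The gene lies on chromosome 10 from 79996494 to 80015572. The log2 difference was -0.047 (95% interval from -0.38 to 0.29, adjusted p = 0.934 in limma) and turned to 0.085 without A4.

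Abca8a and Abca9 are neighbours in a cluster on chromosome 11, with Abca8a from 110025634 to 110095978 and Abca9 from 110100749 to 110168196. Abca8a, the relative of a human transporter linked to cholesterol efflux and sphingomyelin, was at 2.13, 1.94 and 1.71 FPKM in control and 0.72, 1.89 and 1.73 FPKM in depleted mice. Outside A4 all values lay between 1.71 and 2.13 FPKM. The log2 difference was -0.29 (95% interval from -0.78 to 0.19, adjusted p = 0.649 in limma), and -0.057 without A4. At 0.72 FPKM, its value in A4 stands for about 55 fragments if all came from its longest transcript (exact 95% Poisson interval from 41 to 72, counting error only).

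Abca9, whose human counterpart is regulated by cholesterol in macrophages, was at 1.96, 1.67 and 1.70 FPKM in control and 1.08, 1.83 and 2.18 FPKM in depleted mice. A4 was again the lowest of all, and A6 was the highest. The log2 difference was -0.063 (95% interval from -0.48 to 0.35, adjusted p = 0.924 in limma) and 0.11 without A4.

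**Figure D2:**
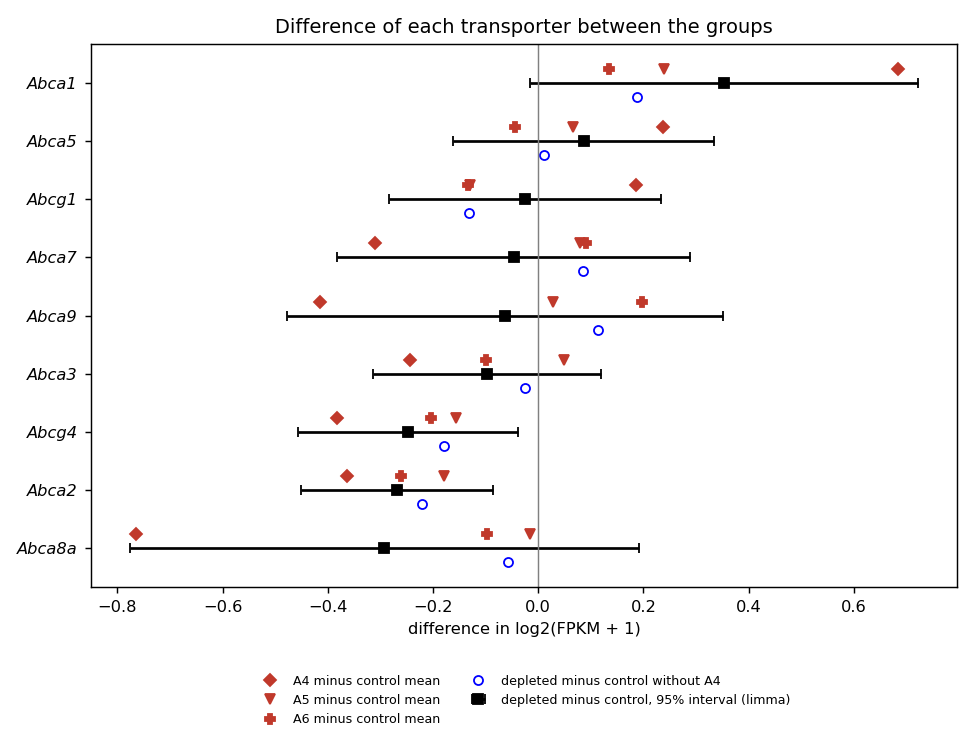
Difference in log2(FPKM + 1) between depleted and control mice (horizontal axis) for each transporter, as the limma estimate with its 95% interval (black), each depleted mouse minus the control mean (red) and the estimate without A4 (blue). The intervals of Abca2 and Abcg4 end below 0, those of the other 7 genes contain 0, and A4 (red diamonds) lies farthest from 0 in each gene.

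Among the depleted mice A4 stood farthest from the controls. It was the highest of the 6 mice in Abca1, Abca5 and Abcg1 and the lowest in Abca2, Abca3, Abca7, Abca8a, Abca9 and Abcg4, which makes 9 of 9 members, where it was at an end of the order in 55.4% of all genes tested. The median absolute log2 difference from the control mean over the 9 genes was 0.36 in A4, against 0.080 in A5 and 0.13 in A6. Over all genes tested the same quantity was 0.20, 0.13 and 0.15. The coefficient of variation ran from 0.636% to 10.9% over the members in control mice and from 6.56% to 43.9% in depleted mice, whose libraries also held fewer fragments. With A4 left out, Abca2, Abcg4 and Abca1 stayed apart between the groups, which leaving out a mouse could not change.

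The differences varied with the GC content of the transcripts. With the genes tested placed in 5 bins of equal size by GC content, the median log2 difference was 0.024 in the lowest bin and -0.098 in the highest bin, above 55.6%. In the highest bin it was -0.093 without A4. Abca2 (57.5%), Abcg4 (57.7%) and Abca7 (58.9%) were in that highest bin. After a correction for this trend, chosen with the values known, the log2 difference was -0.19 for Abca2, -0.16 for Abcg4 and 0.32 for Abca1. The groups stayed apart in Abca2 and Abcg4 and overlapped in Abca1, and Abca7 changed sign, to 0.056. The same kind of correction for transcript length left Abca2 at -0.26 and Abcg4 at -0.24.

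**Figure D3:**
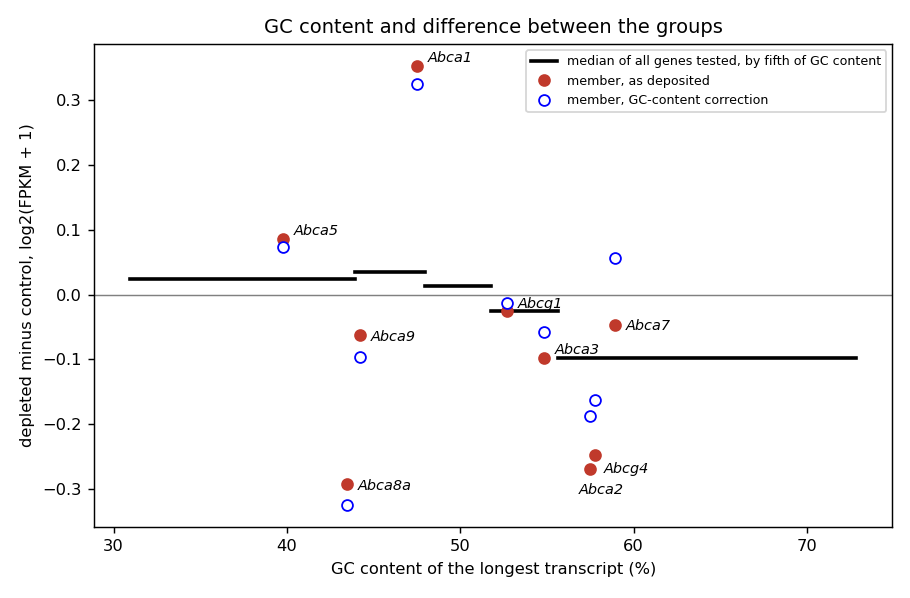
Log2 difference between depleted and control mice (vertical axis) against the GC content of the longest transcript in percent (horizontal axis), for each transporter as deposited (red) and after the GC-content correction (blue circles), with the median of all genes tested in each of the 5 bins of GC content (black lines). The black lines run from 0.024 at the left to -0.098 at the right, and Abca2 and Abcg4 lie below their line.

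Of 13 other ABCA and ABCG genes 3 passed the expression filter, and 0 of these were called. Abca8b, the neighbour and near relative of Abca8a, was at 3.56, 3.66 and 3.46 FPKM in control and 4.64, 4.16 and 3.90 FPKM in depleted mice, so that all depleted mice were above all controls. Its log2 difference was 0.20 (SE 0.11, adjusted p = 0.577 in limma), opposite in sign to Abca8a, and A4 was the highest mouse for Abca8b and the lowest for Abca8a. Abcg2, an efflux pump of the blood-brain barrier, was at 6.05 to 7.17 FPKM in control and 6.56 to 8.40 FPKM in depleted mice. Abca4, the retinal transporter, was at no more than 0.70 FPKM. Abcg5 and Abcg8, the sterol exporters of liver and gut, did not exceed 0.05 FPKM in any mouse.

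The peroxisomal ABCD transporters, which import very-long-chain fatty acids and their derivatives, were all lower on average: 4 of 4 had a negative log2 difference, with a median of -0.24 (-0.15 without A4) and 0 called. Over all genes tested the median was -0.0085, and 52.0% were lower. Abcd4 was at 6.14, 4.88 and 4.87 FPKM in control and 3.64, 3.16 and 5.05 FPKM in depleted mice, a log2 difference of -0.36 (SE 0.16, adjusted p = 0.492 in limma), with A6 within the control range. Abcd3 was at -0.091.

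Of the nuclear receptors and sterol-sensing factors, 8 of 10 were lower on average and 0 were called, with a median log2 difference of -0.097. That median was -0.029 after the GC-content correction, -0.16 with a pseudocount of 0.1 and -0.14 without A5. Nr1h2, the LXR that is found in most tissues, was at 22.3, 20.2 and 22.1 FPKM in control and 15.8, 16.5 and 19.7 FPKM in depleted mice. Every depleted mouse was below every control mouse, with a log2 difference of -0.30 (SE 0.10, adjusted p = 0.396 in limma), and of -0.18 after the GC-content correction. Nr1h3, the LXR of macrophages and liver, was at 1.44 to 1.69 FPKM in control and spread from 0.52 to 2.55 FPKM in depleted mice. Pparg, a fatty acid sensor that acts with RXR, was the member of this list with the largest difference, 0.74 (SE 0.15, adjusted p = 0.293 in limma), and Ppard was lower in every depleted mouse, at -0.19.

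Genes listed here as LXR targets outside the ABC family did not share one direction. Their response to LXR in mouse cortex was not examined. Of 13 tested, 3 were higher and 10 lower on average, 0 were called, and the median was -0.0094. Lpcat3, which builds polyunsaturated phospholipids, was at 6.11, 5.64 and 5.73 FPKM in control and 7.49, 6.94 and 7.21 FPKM in depleted mice, a log2 difference of 0.27 (SE 0.099, adjusted p = 0.419 in limma). Smpdl3a, a phosphodiesterase induced by cholesterol in macrophages, was at 15.2, 12.8 and 13.5 FPKM in control and 9.49, 11.1 and 11.1 FPKM in depleted mice, a log2 difference of -0.36 (SE 0.10, adjusted p = 0.378 in limma). Both genes lay apart between the groups, in opposite directions. Srebf1, the lipogenic factor under LXR control, was at -0.0062, and Mylip, which degrades lipoprotein receptors, at 0.11.

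No acceptor of exported lipid was called. Apoe, the main apolipoprotein of the brain, was at 1256, 987 and 1105 FPKM in control and 1200, 1125 and 998 FPKM in depleted mice, a log2 difference of -0.0076 (SE 0.11, adjusted p = 0.987 in limma). Clu, another abundant apolipoprotein of astrocytes, was at -0.038. Over the 9 of 12 acceptor and enzyme genes tested, 4 were higher and 5 lower, and the median was -0.0076. Apod, an apolipoprotein of glia that responds to injury, was at 94.9, 89.8 and 88.4 FPKM in control and 273.9, 115.1 and 99.3 FPKM in depleted mice. All depleted mice were above the controls, and the log2 difference of 0.68 (SE 0.32, adjusted p = 0.499 in limma) was 0.23 without A4. Lcat, which esterifies the cholesterol on lipoproteins, was at -0.26 (-0.13 without A4) and overlapped between the groups.

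Uptake, storage and synthesis genes were measured in the same fit, with 0 called in each list. Of 10 lipoprotein receptor genes tested, 5 were higher and 5 lower, from Sorl1, a sorting receptor, at -0.30 (-0.15 without A4) to Trem2, a lipid receptor of microglia, at 0.50, with a median of -0.029 (-0.16 without A5). Both of these genes lay apart between the groups. Of 11 genes of intracellular cholesterol handling, 5 were higher and 6 lower, from Cyp27a1, a sterol hydroxylase, at -0.31 (-0.12 without A4) to Osbp, an oxysterol-binding protein, at 0.15, with a median of -0.021 (0.024 without A1). In cholesterol synthesis 16 of 19 genes were lower on average, with a median of -0.073 (-0.029 without A4). The extremes were Mvk, mevalonate kinase, at -0.38 and Lss, lanosterol synthase, at 0.11. Without A4 they were at -0.23 and -0.029. Together these 19 genes reached 479.6 to 539.3 FPKM in control mice, 377.7 in A4, 516.4 in A5 and 500.4 in A6.

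Markers of oligodendrocytes were lower beside Abca2. Of the 13 oligodendrocyte markers, 13 were lower on average in depleted mice, with a median log2 difference of -0.24 (-0.17 without A4). They summed to 3123 to 3402 FPKM in control and 2748 to 2848 FPKM in depleted mice, groups that did not overlap. Every depleted mouse was below every control mouse in 6 of 13 genes (9.38% of all genes tested), and 0 were called, with 5 at an unadjusted p-value under 0.05 in limma. Cnp, a myelin enzyme, was at 164.2, 155.2 and 156.4 FPKM in control and 122.5, 130.2 and 130.8 FPKM in depleted mice, a log2 difference of -0.31 (SE 0.065, adjusted p = 0.307 in limma). Ugt8a, which makes galactosylceramide, was at -0.70 (-0.36 without A4), and Mal, a myelin proteolipid, at -0.011. Abca2, at -0.27, thus lay near the median of the oligodendrocyte markers, and their part in its difference was not tested.

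Oligodendrocyte precursor and lineage markers were lower as well. All 6 tested were lower on average, 4 of them in every depleted mouse (9.38% of all genes tested), with a median of -0.33 (-0.20 without A4), sums of 95.4 to 108.9 FPKM in control and 69.9 to 86.9 FPKM in depleted mice, and 0 called. Olig1, a lineage factor, was at -0.44 (-0.27 without A4) and Gpr17, a receptor of committed precursors, at -0.080 (-0.17 without A4).

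Astrocyte markers were mixed, with 3 of 10 higher, a median of -0.14 (-0.075 without A4 and -0.064 without A1), and Gfap, the filament of reactive astrocytes, at 1.00 (0.54 without A4) against Aldh1l1 at -0.21 (-0.13 without A4). They summed to 1211 to 1360 FPKM in control and 1215 to 1332 FPKM in depleted mice. Neuronal markers had a median of -0.039 (0.027 without A4), from Nefl at -0.28 (-0.045 without A4) to Gad1 at 0.056, with sums of 3056 to 3426 FPKM and 2902 to 3245 FPKM. Neither list had a called gene, and both sums overlapped between the groups.

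The 10 microglial genes, with 7 higher and 3 lower, had a median of 0.029 (-0.031 without A4), with Fcrls lowest, at -0.90. Of 8 monocyte and border macrophage genes 6 were tested, with a median of 0.011, from Pf4 at -0.85 (-0.54 without A4) to Ly6c2 at 0.62, and Ms4a7 was listed at 0 in at least 1 mouse. They summed to 6.43 to 8.21 FPKM in control and 4.75 to 7.61 FPKM in depleted mice. Ly6c2 passed the expression filter only through the depleted mice, with means of 0.263 FPKM in control and 1.0 FPKM in depleted mice. Its groups overlapped, and without A4 it fell below the filter. Among vascular cells, 7 of 7 endothelial markers were higher on average, with a median of 0.13 (0.22 without A4 and 0.050 without A6), from Slc2a1 at 0.020 to Pecam1 at 0.34, and summed to 69.9 to 76.4 FPKM in control and 79.2 to 83.0 FPKM in depleted mice. Of 8 mural and fibroblast markers 7 were lower, with a median of -0.17 and overlapping sums. That median was 0.023 without A6 and -0.070 without A1. Rgs5 was at -0.40 and Dcn at 0.026, and without A4 they were at -0.18 and -0.040.

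Choroid plexus markers had the lowest median of the 18 lists. All 8 were lower on average, with a median of -0.43 (-0.58 without A4), from Ttr at -1.91 to Kl at -0.23, and they summed to 170.5 to 327.1 FPKM in control and 47.3 to 72.6 FPKM in depleted mice. Their part in the transporter values was not tested. The 6 cortical markers had a median of -0.077, from Neurod6 at -0.32 to Slc17a7 at 0.031. None of these lists had a called gene.

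**Figure D4:**
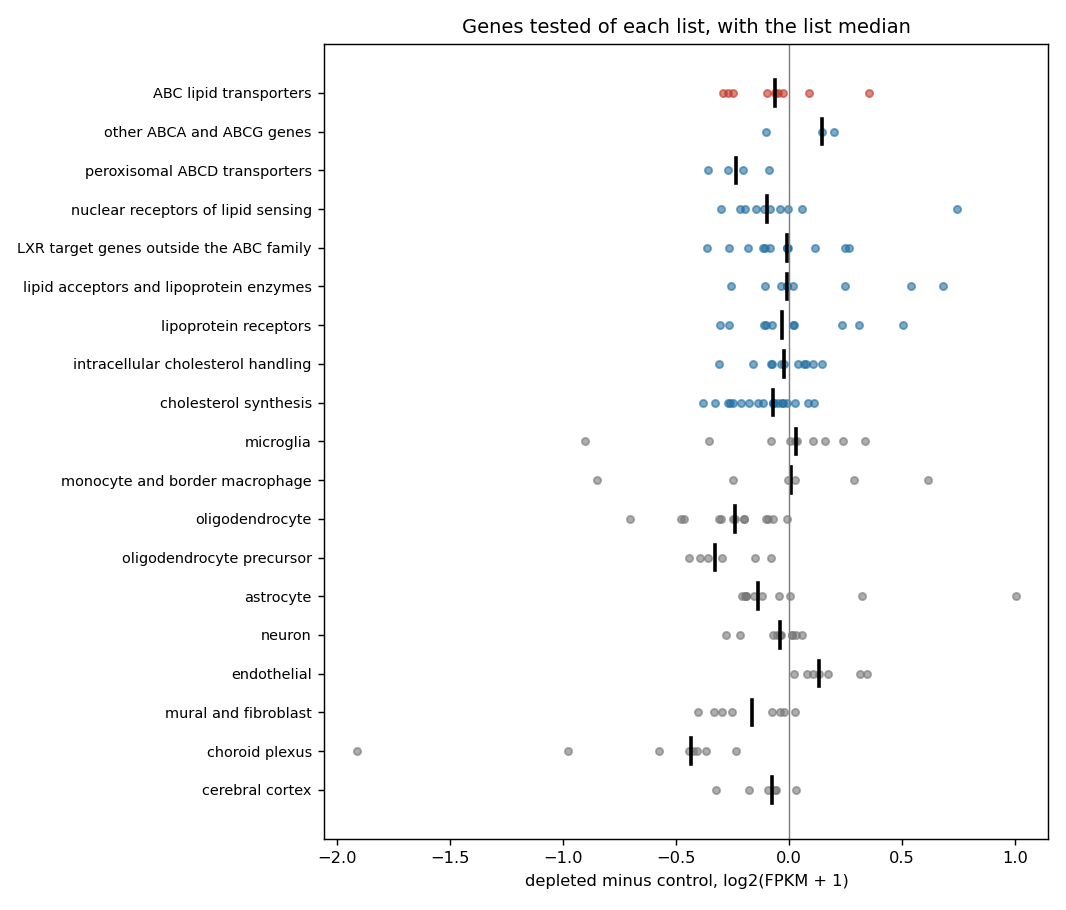
Log2 difference between depleted and control mice (horizontal axis) of each gene tested, by list, with the list median as a black bar. The transporters (red) run from -0.29 to 0.35, the family and pathway lists are blue, and of the cell type markers (grey) all 13 oligodendrocyte and all 8 choroid plexus genes lie below 0.

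The genes whose pattern over the 6 mice was most like that of Abca2 were found by the root-mean-square distance between log2(FPKM + 1) profiles, each centred on its own mean, among the 6855 genes whose mean reached 10 FPKM. The nearest genes included Isoc2a, Carm1, Stx16 and Zer1, at distances from 0.019 to 0.032, where the median over all genes compared was 0.18. Carm1 encodes an arginine methyltransferase and Stx16 a syntaxin of the Golgi. Stx16, for example, was at 27.9, 27.65 and 28.3 FPKM in control and 21.5, 24.7 and 23.5 FPKM in depleted mice. These 4 genes were lower in depleted mice on average, from -0.22 to -0.26. Their choice by likeness to Abca2 over the same mice fixed this direction in advance. Of the other transporters, only Abcg4, Abca3 and Abcg1 reached a mean of 10 FPKM and were compared. Abcg4 was nearest to Abca2, at 0.057, followed by Abca3 at 0.11. Abcg1, at 0.21, was farther from Abca2 than the median gene.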

How the data were processed

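Libraries were poly(A)-selected and read as pairs of 75 bp. By the study's methods, the authors used TopHat for alignment and RSEM for known transcripts, and deposited FPKM values per gene and mouse after TMM scaling. The submitters' processing notes also name DESeq and mm9. Since counts were not used here, no count test was run.

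The deposited FPKM values were taken as log2(FPKM + 1). Genes whose mean reached 0.5 FPKM (14385 of 23366) entered limma 3.58.1 (its lmFit and trended eBayes functions, under R 4.3.3), without covariates, and Benjamini-Hochberg adjustment covered all of them at a threshold of 0.1. The fit was tested on simulated data. Exact permutation tests used scipy 1.17.1. Each mouse was 1 library. The limma p-values set a difference against the spread between these mice, with the variance of each gene drawn toward a trend over all genes tested.

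The transporters and lists were chosen with earlier results of these data known. The rule named all 9 transporters, the genes with the largest and smallest difference in each of 18 other lists, and the 5 genes nearest to Abca2 in profile. Other genes with values (Abcg2, Abcg5, Abcg8, Nr1h3, Ppard, Srebf1, Mylip, Scd1, Apoe, Clu, Cnp, P2ry12, Siglech and Xist) were picked after seeing them. Some genes that the rule selects are not reported here. Gene positions, transcript GC content (found for 99.1% of genes tested) and lengths are those of GENCODE M21 on GRCm38, and promoters those of RefSeq on GRCm38.p6. Fragment numbers were estimated from the spacing of low FPKM values. Alternatives were a pseudocount of 0.1, 2 other filters, 3 other scalings, 3 other forms of the fit, a threshold of 0.05, leaving out each mouse, and corrections for GC content and length, both chosen after seeing the data.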

Additional observations from a re-analysis of the deposited data

How the results depend on the processing

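None of the 9 transporters was called under any of the 18 alternatives. The number of members with an unadjusted p-value under 0.05 in limma, 2 as reported, depended on the setting. It was 1 after the GC-content correction, without A2 and without A3, and 3 with quantile normalization and without A6. Over all genes tested the number was 1515 as reported, and 1287, 945, 881, 1543 and 1874 in these settings, in the same order. Abca1, Abca2, Abca3, Abca5, Abca8a and Abcg4 kept their direction in all 18, with a log2 difference from -0.31 to -0.19 for Abca2 (adjusted p from 0.230 to 0.892 in limma) and from 0.19 to 0.46 for Abca1. The other filters, the eBayes alternatives and the threshold of 0.05 leave a log2 difference as it is, so they could not change a direction. The groups did not overlap in Abca1, Abca2 and Abcg4. In these genes leaving out a mouse, array weights and the pseudocount of 0.1 could not change a direction either. A threshold of 0.05 also could not call a gene that was not called at 0.1. The number of genes called among all genes tested, 4 as reported, was 2 with eBayes without a trend, 20 with array weights and 2 to 29 with 1 mouse left out: 2 without A1, 22 without A4, 29 without A5 and 8 without A6. The causes were not tested. Abca7, at -0.047, was at 0.029 with array weights, 0.056 after the GC-content correction, and from -0.12 to 0.085 with 1 mouse left out. Abca9, at -0.063, was at 0.0019 with array weights and from -0.19 to 0.11 with 1 mouse left out, and Abcg1, at -0.026, from -0.13 to 0.028. Of the 18 other lists, the number of called genes moved in 1, choroid plexus, from 0 to 1 with array weights and without A4. The list medians moved by more than the spread between mice in 19 of 324 comparisons with an alternative, 4 of them without A4 and 3 after the GC-content correction. The log2 difference was smaller without A4 by over 1.5 times in Abca1 (0.19), Abca3 (-0.025), Abca5 (0.011) and Abca8a (-0.057), and it changed sign in Abca7 and Abca9. No paired analysis was possible because the labels give the groups no shared replicate numbers.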
